A study of Homo sapiens with 28 samples.

Results

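The 10 genes described here encode the proteins best known for reading and erasing N6-methyladenosine (m6A): the nuclear reader YTHDC1, the helicase-containing reader YTHDC2, the cytoplasmic readers YTHDF1, YTHDF2 and YTHDF3, the IGF2BP family of mRNA-stabilising readers (IGF2BP1, IGF2BP2 and IGF2BP3), and the demethylases FTO and ALKBH5. They were chosen by name, with no measured value in the rule, although earlier results of these data were known when the list was made. Each was located in the hg38 genome by the GENCODE annotation, and an m6A peak was assigned to it when the peak's summit lay on the gene's own strand, from 1000 bases upstream of the gene start to the gene end. In this way 586 of 496678 listed peaks fell in these genes, which are 10 of the 18356 genes with such a sense peak in at least 1 peak list.

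The measurement was methylated RNA immunoprecipitation sequencing (MeRIP-seq) of rRNA-depleted chromatin-associated RNA (caRNA), in which RNA fragments bound by an m6A antibody are sequenced. The 14 immunoprecipitated (IP) libraries fell into 6 groups. Cells without a hairpin (WT) gave 2 libraries each of HepG2, a hepatoma line, and of K562, a chronic myelogenous leukaemia line. K562 cells with a control hairpin (Control) and with RBFOX2 knocked down (RBFOX2 KD) gave 2 libraries each, and cells of NB4, a line from acute promyelocytic leukaemia, gave 3 of each. RBFOX2 encodes a splicing factor, and its knockdown (KD) was made with a lentiviral short hairpin RNA, so the Control libraries also come from transduced cells while the WT libraries do not. The methods call replicates biological but do not say whether they were separate cultures, so p-values measure only the spread between these samples. The 14 matched input libraries were not analysed here. RNA of a whole population was measured, so fewer cells and less RNA per cell cannot be told apart, and in an IP peak the amount of RNA cannot be told apart from the share of it that is methylated.

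A list held 22700 to 44088 peaks, and the read depth behind it, recovered from the local background in the lists, was 10764000 to 32933333 reads. The HepG2 WT lists were the shortest, and their recovered depth was the greatest. In NB4, the RBFOX2 KD lists held 36777 to 39803 peaks from 16804667 to 21857333 reads and the Control lists 29609 to 33497 peaks from 10764000 to 17186000 reads, which is a gap between the groups compared below. With lists scaled to a common depth, the count of genes that did not overlap in NB4 was 2, as without scaling. No share of all genes was computed at a common depth, and the part of depth in the NB4 comparison was not tested. Pileups in both HepG2 WT lists and in the NB4 Control 3 list were mostly not whole numbers (within 0.05), unlike those in all other lists, and the part of that difference in processing was not tested. Depth in these lists was therefore recovered by another route, from the integer part of the pileup. It may not be comparable with the depth of the other lists. Peaks in line-specific genes followed the labels for the most part. Of 6 marker genes for each line, 4 had a peak in at least 1 HepG2 library (ALB and AFP had none), 6 in K562 and 5 in NB4 (ELANE had none), against 0 to 2 of them in another line. Listed in every library of their line were 2 of the HepG2, 5 of the K562 and 5 of the NB4 markers, and 1 NB4 marker was listed in every K562 library. Peaks in the RBFOX2 gene itself numbered 0 in HepG2 and 1 to 3 in the other lists, and peak lists do not check a knockdown.

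m6A is placed on nascent RNA by a methyltransferase complex built on METTL3 and METTL14, mostly within DRACH, a 5-base motif with A, G or T first, then A or G, then A, C, and last A, C or T. Readers with a YTH domain hold the methylated base in an aromatic cage. YTHDC1 acts in the nucleus on splicing, export and chromatin-bound RNA, the YTHDF proteins act mainly on mRNA decay and translation, and IGF2BP proteins are better known for protecting bound mRNA. FTO and ALKBH5 oxidise the mark and so remove it.

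Sequences around the summits of some of the regions on which the results turn are shown first, since they carry the places and motifs referred to below. Overlapping sense peaks of the 14 lists were merged into regions, and a summit here is that of the strongest peak in the region. Each is the reference sequence of hg38 on the strand of the gene, 5′ to 3′, and not sequence read from these cells. In the first set capitals mark every DRACH match, in windows of 101 bases centred on a summit.
YTHDC1 exon 4 (chr4:68337272-68337372, minus strand): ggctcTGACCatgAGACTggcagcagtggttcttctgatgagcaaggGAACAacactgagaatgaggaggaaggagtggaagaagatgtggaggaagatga
YTHDF1 exon 4 (chr20:63203215-63203315, minus strand): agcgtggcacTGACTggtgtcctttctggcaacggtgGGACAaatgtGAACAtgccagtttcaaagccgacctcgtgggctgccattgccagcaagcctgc
IGF2BP3 intron 3 (chr7:23415017-23415117, minus strand): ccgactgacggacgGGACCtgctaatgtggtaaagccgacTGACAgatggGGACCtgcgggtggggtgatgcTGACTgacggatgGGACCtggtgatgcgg
FTO exon 3 (chr16:53826327-53826427, plus strand): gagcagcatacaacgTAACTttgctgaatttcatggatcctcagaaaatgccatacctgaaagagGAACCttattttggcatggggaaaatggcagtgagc
FTO junction of intron 3 and exon 4 (chr16:53844101-53844201, plus strand): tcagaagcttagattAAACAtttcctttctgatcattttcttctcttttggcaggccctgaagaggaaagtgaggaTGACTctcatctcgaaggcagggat

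In a further pair of 101-base windows, capitals mark GGACU, written GGACT in DNA letters, which is the DRACH form most often found methylated.
YTHDF2 exon 4 (chr1:28743665-28743765, plus strand): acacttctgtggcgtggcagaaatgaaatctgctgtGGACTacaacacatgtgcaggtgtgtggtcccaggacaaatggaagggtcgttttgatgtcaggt
ALKBH5 exon 1 (chr17:18184349-18184449, plus strand): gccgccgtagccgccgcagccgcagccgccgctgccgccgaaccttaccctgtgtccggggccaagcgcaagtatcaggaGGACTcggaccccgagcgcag

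For regions in untranslated regions (UTRs), 29 bases around the DRACH match nearest the summit are shown, again with the match in capitals.
IGF2BP1 5′ UTR (chr17:48997705-48997733, plus strand): cggccttgcccgGGACCgcgtcctgcccc
IGF2BP2 3′ UTR (chr3:185643868-185643896, minus strand): gcgctaaaggatGAACAtgtactggttta

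The windows differ in kind. The IGF2BP3 intron 3 window is built of near-repeats of a GC-rich unit that ends in a GGACC match, whereas the YTHDF windows are ordinary coding sequence. A GGACU was found within 75 bases of the summit, on the gene's strand, in 12 of the 77 regions of these genes (15.6%), against 23.3% of all 86481 regions. Among the 16 regions listed in all 14 libraries it was found in 5 (31.3%), against 29.8% of all 7708 such regions. DRACH was within reach in 76 of 77 regions (98.7%), against 95.5% of all regions. UGCAUG, the motif that RBFOX proteins are known to bind, was found in 1 of 77 regions (1.30%) and in 3.56% of all regions, and AGAUG, the motif the study followed at RBFOX2-bound m6A sites, in 21 of 77 (27.3%) and in 22.8% of all regions. A match describes these letters and is not a mapped m6A site.

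All 10 genes had a sense peak in all 14 lists. Of all genes with a peak in any list 32.0% did so, and of the protein-coding genes among them 40.2%. Their level was measured as the percentile of a gene's strongest sense peak within its own list, ranked by the −log10 q of the peak caller, so that 100 is the top of a list. It is not divided by gene length, and a longer gene has more places where a strong peak can fall. The median of the 10 genes' medians over 14 lists was 90.8, and the same over the 5878 genes present in all lists was 85.7.

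**Figure D1:**
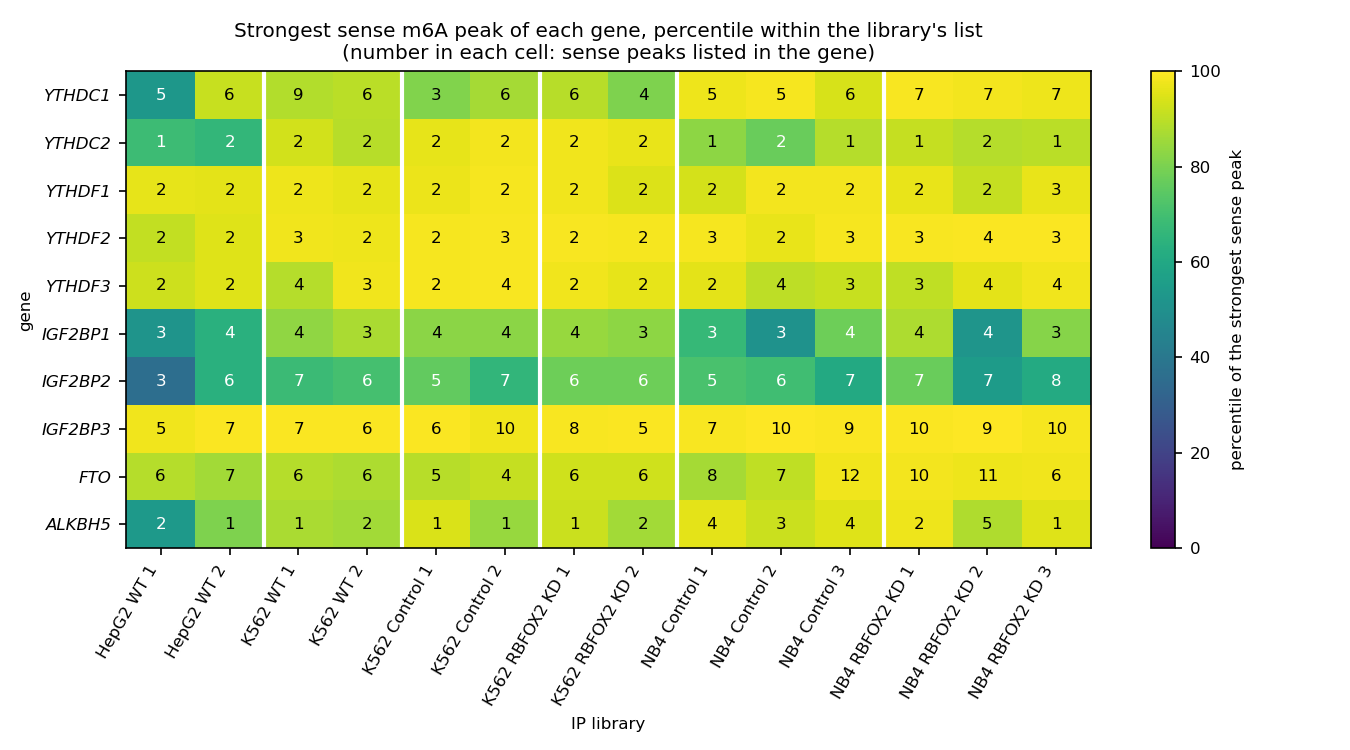
Percentile of the strongest sense peak (colour, 0 to 100) and number of sense peaks (printed in the cell) for the 10 genes (rows) in the 14 IP libraries (columns, by group). IGF2BP3 lies above 97 in every library, whereas YTHDC2, IGF2BP1 and IGF2BP2 are lowest in the HepG2 WT or NB4 libraries.

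In order of median percentile over the 14 lists, the genes ran IGF2BP3 (99.3), YTHDF2 (98.8), YTHDF1 (96.5), YTHDF3 (95.9), FTO (90.8), YTHDC1 (90.7), ALKBH5 (90.0), YTHDC2 (89.4), IGF2BP1 (82.1) and IGF2BP2 (68.7). Neighbours were often not separable: YTHDF1 was above YTHDF3 in 6 of 14 lists, FTO above YTHDC1 in 8, YTHDC1 above ALKBH5 in 9 and ALKBH5 above YTHDC2 in 6. YTHDC2 was above IGF2BP1 in 14 of 14 lists and IGF2BP3 above YTHDF2 in 12. Counted per length, the order was another one. Sense peaks per 100 kb of gene were most frequent in YTHDC1 (14.8), YTHDF1 (10.0) and ALKBH5 (7.97), and least frequent in the long genes YTHDC2 (2.01) and FTO (1.56).

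The peaks lay mostly in introns, which held 53.1% of the 586 peaks against 43.6% in all protein-coding genes. Coding sequence held 22.5% (28.7% in all protein-coding genes), the 3′ UTR 12.6% (14.3%) and the 5′ UTR 9.39% (4.34%). Of the 311 intron peaks, 28.0% had the summit within 150 bases of an exon of the canonical transcript, against 17.5% over all protein-coding genes. Of the 77 regions, 16 were listed in all 14 libraries and 16 in only 1, while 8.91% of all regions of the series were listed in all 14.

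**Figure D2:**
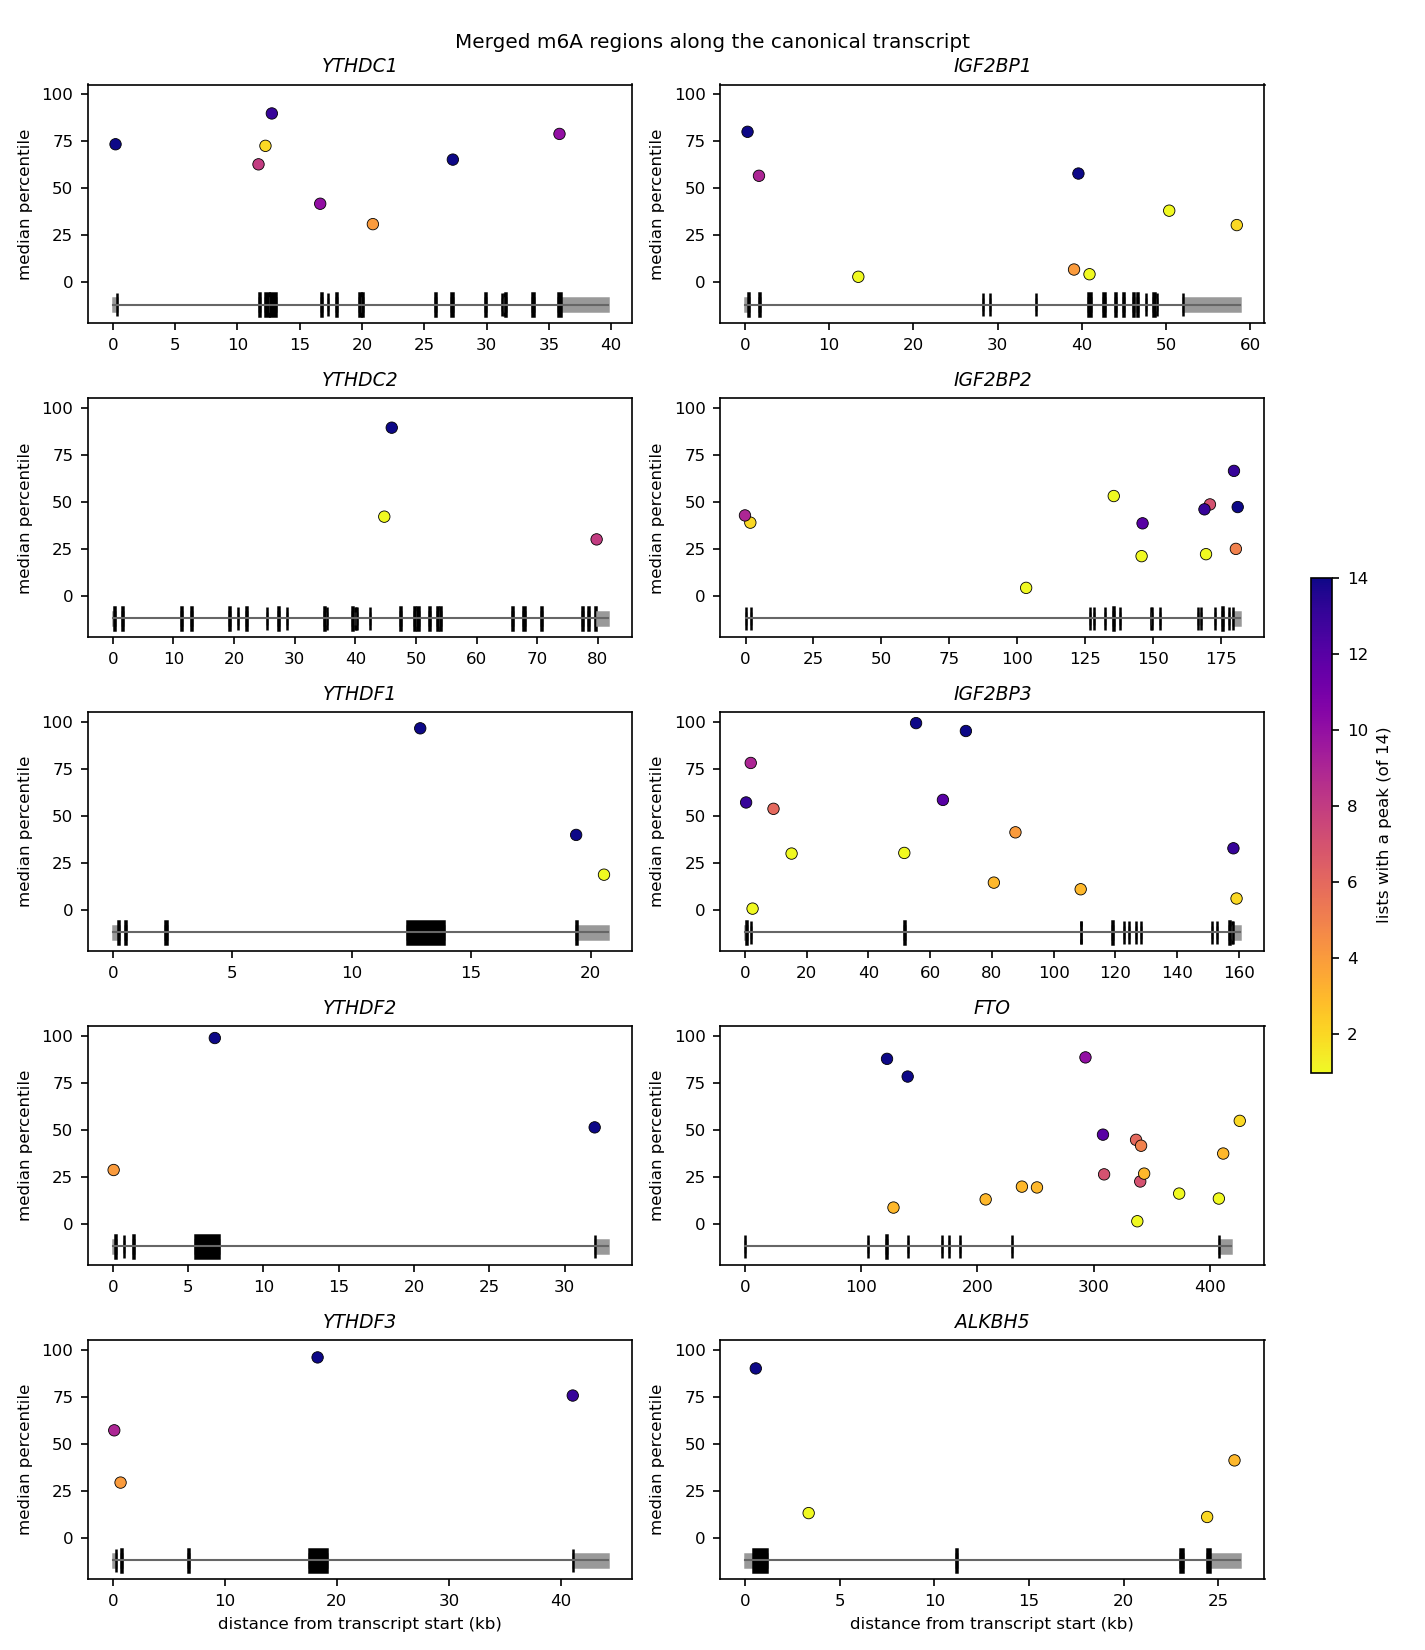
Regions of merged sense peaks along the canonical transcript of each of the 10 genes (x axis, distance from the transcript start; black boxes, coding exons; grey boxes, UTRs), drawn at the median percentile over the lists that hold them (y axis) and coloured by how many of the 14 lists do. The YTHDF genes carry their highest region on exon 4, IGF2BP3 its highest regions inside intron 3, and FTO has many regions in intron 8 that are absent from some lists.

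YTHDC1 had 8 regions. The highest on average covered coding exon 4 (68337025 to 68337569 on chromosome 4), a 424-base exon that is longer than 97.4% of internal exons. This region was listed in 13 of 14 libraries, and HepG2 WT 1 did not hold it. Its percentile was 75.5 in HepG2 WT 2, 88.5 and 89.6 in K562 WT, 81.1 and 86.3 in K562 Control, 89.4 and 80.8 in K562 RBFOX2 KD, 97.4, 98.6 and 93.8 in NB4 Control, and 99.2, 98.2 and 97.4 in NB4 RBFOX2 KD. All NB4 libraries thus lay above all others. Summits in the 13 lists fell within 11 bases of each other, at the DRACH matches shown above.

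In HepG2 the strongest YTHDC1 peak was elsewhere, on coding exon 3 (68337740 to 68337919), at percentiles 53.0 and 91.8. That region was listed in both HepG2 WT libraries and in none of the 12 others. The HepG2 pair was far apart here, and HepG2 WT 1 was the lower of the pair in 7 of the 10 genes. The 5′ UTR region in exon 1 (68349728 to 68350068) and the region of exon 11 (68321376 to 68322955) were listed in all 14 libraries, at percentiles of 7.44 to 85.9 and 44.8 to 76.6. A further region in intron 9 was listed in 3 of 3 NB4 RBFOX2 KD lists (42.8, 51.8 and 18.7) and in 0 of 3 NB4 Control lists, and also in K562 WT 1 (17.5).

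YTHDC2, whose protein also carries an RNA helicase and is best known for its part in meiosis, had 3 regions, and a single one carried its level. It lay inside intron 17. Its percentile was 68.5 and 66.4 in HepG2 WT, 93.2 and 89.2 in K562 WT, 96.2 and 98.1 in K562 Control, 97.7 and 96.8 in K562 RBFOX2 KD, 83.2, 77.2 and 88.7 in NB4 Control, and 91.3, 89.0 and 89.7 in NB4 RBFOX2 KD. No HepG2 value overlapped any other group, and the NB4 Control values lay below all those of K562. The fold at the summit over local background ran from 5.23 and 5.68 in HepG2 WT to 37.3 and 34.3 in K562 RBFOX2 KD. Of the 71 stretches of 31 bases in the 101-base window around its summit, 18 have another exact copy in hg38, with up to 28 places. The other region found along cell lines was at the 3′ UTR start (chromosome 5, 113593409 to 113593626), listed in 6 of 6 K562 libraries at percentiles of 26.7 to 51.9, in 0 of 2 HepG2 libraries and in 2 of 6 NB4 libraries.

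YTHDC2 had the widest range of group means of the 10 genes, 29.8 percentile points. Among all other protein-coding genes the one with the nearest percentiles over the 14 lists was SNAP47, at a mean absolute difference of 2.89 points.

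YTHDF1, YTHDF2 and YTHDF3, close paralogs, shared their layout. In each of them the highest region lay on coding exon 4, which is 1521 bases long in YTHDF1, 1584 in YTHDF2 and 1599 in YTHDF3. The median internal exon measured 123 bases, and each of these exons was longer than at least 99.6% of the 171249 internal exons compared. The regions were listed in all 14 libraries and covered the whole exon (63202105 to 63203817 on chromosome 20, 28742368 to 28744289 on chromosome 1 and 63186018 to 63187972 on chromosome 8).

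The YTHDF1 exon 4 percentile was 96.2 and 96.0 in HepG2 WT, 97.6 and 96.1 in K562 WT, 97.3 and 98.5 in K562 Control, 97.8 and 94.6 in K562 RBFOX2 KD, 93.7, 98.3 and 98.1 in NB4 Control, and 96.5, 91.1 and 96.5 in NB4 RBFOX2 KD. All 14 values lay between 91.1 and 98.5, with the lowest in NB4 RBFOX2 KD 2. In YTHDF2 the gene-level percentile was 90.8 and 95.1 in HepG2 WT, 98.0 and 97.6 in K562 WT, 98.8 and 98.9 in K562 Control, 98.8 and 98.8 in K562 RBFOX2 KD, 98.8, 96.7 and 98.5 in NB4 Control, and 99.0, 99.2 and 99.5 in NB4 RBFOX2 KD. Both HepG2 values were below all 12 others. In YTHDF3 it was 92.2 and 95.3 in HepG2 WT, 89.0 and 97.7 in K562 WT, 98.6 and 99.0 in K562 Control, 98.0 and 96.3 in K562 RBFOX2 KD, 95.7, 90.0 and 91.6 in NB4 Control, and 90.5, 96.0 and 98.0 in NB4 RBFOX2 KD. The K562 WT pair spanned most of that range.

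The summit position set the paralogs apart. In YTHDF2 the 14 summits lay within 10 bases of each other, at -303 to -293 coding bases from the stop codon, with the GGACU shown above at -12 bases from the summit. In YTHDF1 13 of the 14 summits lay 12809 to 12911 bases from the transcript start, and that of NB4 RBFOX2 KD 2 lay at 13587. In YTHDF3 the summits were spread over 690 bases, from -1256 to -566 coding bases from the stop codon. Those of both HepG2 WT libraries lay 18289 and 18290 bases from the transcript start and those of the 6 NB4 libraries at 18484 to 18574, while those of the 6 K562 libraries were scattered from 17892 to 18582. Among regions listed in all 14 libraries, 4 of the 16 in these genes had summits within 25 bases of each other (YTHDF2 exon 4, ALKBH5 exon 1, the FTO exon 4 junction and the IGF2BP1 5′ UTR), against 10.6% of all 7708, and the median spread was 131.5 bases against 133.

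The YTHDF2 window is not unique in the genome. Of its 71 stretches of 31 bases, 55 have an exact copy in the processed pseudogene YTHDF2P1 (chr14:39216006-39216090), where 6 lists also held a peak. The treatment of reads that align to several places is not given in the sources used here, and its part in the levels of this and the other regions with copies was not tested. The YTHDF1 and YTHDF3 windows had no copy. All 3 genes also had peaks at or near exon 5: YTHDF1 and YTHDF2 in all 14 lists, at percentiles of 23.6 to 76.5 and 8.67 to 76.4. In YTHDF1 13 summits lay in intron 4, at most 46 bases before the exon, and 1 in the exon. In YTHDF2 10 lay in the 3′ UTR of exon 5, 1 in its coding sequence and 3 in intron 4, at most 6 bases before the exon. In YTHDF3 a region at the stop codon was listed in 13. YTHDF3 also had a 5′ UTR region (63168536 to 63168882) that was listed in 6 of 6 NB4 libraries and 3 of 6 K562 libraries but in 0 of 2 HepG2 libraries.

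**Figure D3:**
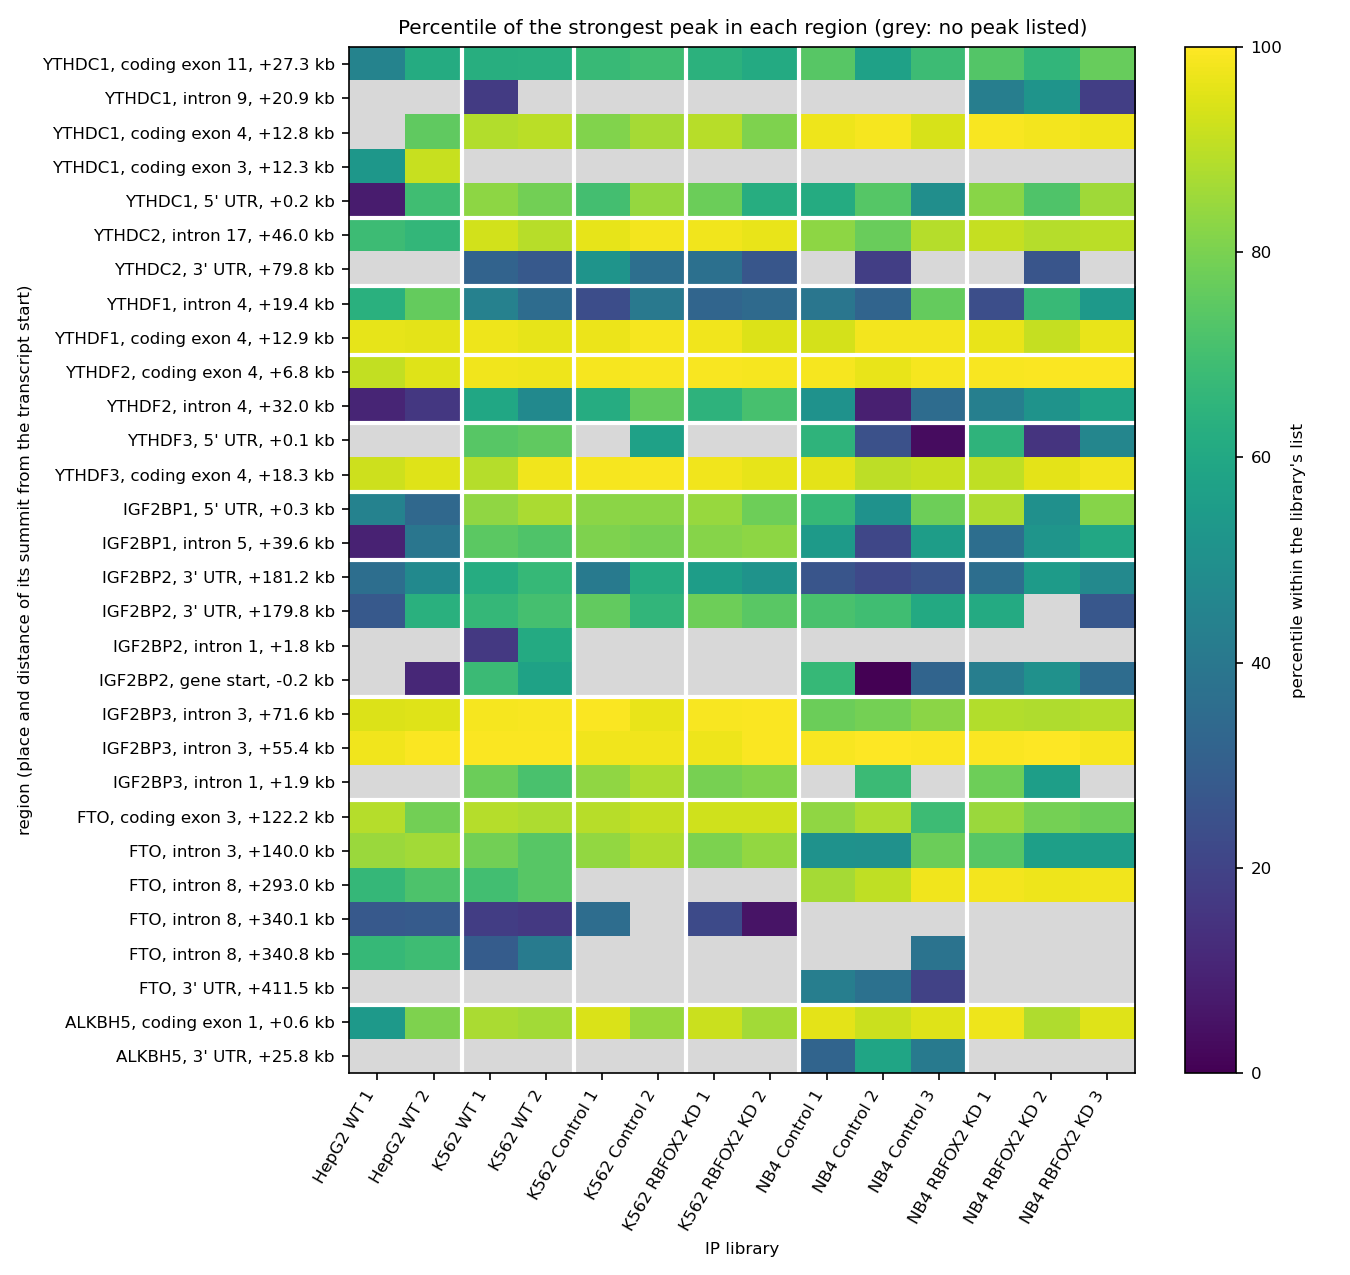
Percentile (colour, 0 to 100) of 30 named regions of the 10 genes (rows) in the 14 IP libraries (columns, by group). Grey marks a library whose list holds no peak in the region. Rows are named by the place of their strongest summit, and most summits of the YTHDF2 intron 4 row lie in exon 5. The exon 4 regions of YTHDF1, YTHDF2 and YTHDF3 are high throughout, and the FTO intron 8 region is grey in the 4 K562 hairpin libraries and high in the 6 NB4 libraries.

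The IGF2BP genes encode oncofetal RNA-binding proteins with KH domains, and they lay at both ends of the order. IGF2BP3 was the highest of the 10 genes, at 98.0 and 99.4 in HepG2 WT, 99.6 and 99.4 in K562 WT, 99.4 and 97.8 in K562 Control, 99.0 and 99.2 in K562 RBFOX2 KD, 99.0, 99.7 and 99.4 in NB4 Control, and 99.3, 99.7 and 98.8 in NB4 RBFOX2 KD. All 14 values lay between 97.8 and 99.7. Its level came from a pair of regions inside intron 3, far from any exon, both listed in all 14 libraries.

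The region nearer the gene start (chromosome 7, 23414346 to 23416009, summits 55415 to 55553 bases from the transcript start) had percentiles of 97.3 to 99.7. Its window, shown above, has no other exact copy in hg38. It is repetitive in itself, however: 24.3% of its 12-base stretches occur more than 1 time within the region, more than in 98.4% of the 7708 regions listed everywhere (median 0), and it holds 3.13 DRACH matches per 100 bases against a median of 2.14. The other region (23397916 to 23399220) had percentiles of 94.9 and 95.3 in HepG2 WT, 96.7 to 99.4 in the 6 K562 libraries and 77.7 to 88.9 in the 6 NB4 libraries, so that NB4 lay below both other lines. Its summit also moved with the line, at 71544 to 71591 bases from the transcript start in the 8 HepG2 and K562 libraries and at 72265 to 72298 in the 6 NB4 libraries. All 71 stretches of its window have copies elsewhere, with a median of 252 places and up to 12051. A region in intron 1 of IGF2BP3 (23468490 to 23468935) was listed in 6 of 6 K562 libraries (71.4 to 87.9), in 3 of 6 NB4 libraries and in 0 of 2 HepG2 libraries.

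IGF2BP1 lay lower and varied more. Its percentile was 51.6 and 63.6 in HepG2 WT, 83.5 and 87.2 in K562 WT, 82.8 and 82.6 in K562 Control, 84.6 and 83.0 in K562 RBFOX2 KD, 67.1, 51.0 and 77.8 in NB4 Control, and 87.5, 52.1 and 81.7 in NB4 RBFOX2 KD. The K562 values were close together, whereas the NB4 RBFOX2 KD values ran from 52.1 to 87.5. The highest region was in the 5′ UTR of exon 1 (chromosome 17, 48997249 to 48998141), with the summits of 14 lists within 25 bases, and a further region in intron 5 (49036801 to 49037612) was also listed in all 14, at 9.41 to 83.0. Across the group means IGF2BP1 ranged over 27.8 points, and the gene with the nearest percentiles was PTPRA (mean absolute difference 3.77 points).

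IGF2BP2 was the lowest of the 10, at 36.3 and 63.6 in HepG2 WT, 68.0 and 70.5 in K562 WT, 75.9 and 66.0 in K562 Control, 78.0 and 77.9 in K562 RBFOX2 KD, 71.4, 69.5 and 60.8 in NB4 Control, and 77.1, 54.8 and 61.0 in NB4 RBFOX2 KD. Its main peaks were in the 3′ UTR of exon 16. In some libraries the strongest peak lay elsewhere, as in intron 7 in K562 RBFOX2 KD 2 and intron 12 in NB4 RBFOX2 KD 1. The region listed in all 14 libraries (chromosome 3, 185643364 to 185644114) had percentiles of 22.1 to 66.9, and the one nearer the stop codon (185644889 to 185645760) was higher on average but missing from NB4 RBFOX2 KD 2. Of the 71 stretches in the window of the first, 44 have copies, in PPHLN1 on chromosome 12 and PTPN13 on chromosome 4, at neither of which a peak was listed. Across the group means IGF2BP2 ranged over 27.9 points, and the nearest gene was SUMF2 (4.87 points).

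FTO, the first m6A demethylase described, is the longest of the 10 genes and had the most regions (18). Its gene-level percentile was 88.8 and 86.2 in HepG2 WT, 88.7 and 87.7 in K562 WT, 89.3 and 91.2 in K562 Control, 92.8 and 92.6 in K562 RBFOX2 KD, 86.4, 90.5 and 97.9 in NB4 Control, and 98.3, 97.4 and 97.7 in NB4 RBFOX2 KD. These gene-level values came from different places. In K562 the strongest peak was on coding exon 3 (chromosome 16, 53825753 to 53826554), a 628-base exon longer than 98.5% of internal exons, whereas in all 6 NB4 libraries it was in intron 8. HepG2 WT 1 had its strongest peak on exon 3 and HepG2 WT 2 at the junction of intron 3 and exon 4.

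The FTO exon 3 region was listed everywhere, at 88.8 and 78.9 in HepG2 WT, 88.7 and 87.7 in K562 WT, 89.3 and 91.2 in K562 Control, 92.8 and 92.6 in K562 RBFOX2 KD, 83.2, 87.6 and 68.7 in NB4 Control, and 84.8, 79.1 and 77.6 in NB4 RBFOX2 KD. The intron 8 region was at 66.4 and 72.0 in HepG2 WT, 69.8 and 74.0 in K562 WT, 86.4, 90.5 and 97.9 in NB4 Control, and 98.3, 97.4 and 97.7 in NB4 RBFOX2 KD, and it was not listed in any of the 4 K562 hairpin libraries. NB4 was thus high and K562 hairpin libraries were without a peak at this site. Of the 71 stretches in its window 28 have copies elsewhere, with up to 18 places. Peaks were listed at the copy on chromosome 7 (100282692 to 100282723) in 9 lists and at that in PITPNM2 in 4 lists. The other copies that were located had none. Within the region 21.97% of the 12-base stretches occur more than 1 time, more than in 98.1% of the 7708 regions listed everywhere. The junction of intron 3 and exon 4 (53844011 to 53844269) was listed in all 14 libraries at 50.6 to 88.0, with summits 4 to 19 bases before the exon. Another intron 8 region, 340082 bases from the transcript start, was listed in 2 of 2 HepG2 libraries (28.0 and 28.8), in 5 of 6 K562 libraries and in 0 of 6 NB4 libraries. All 71 stretches of its window have copies, with a median of 565 places.

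ALKBH5, the other demethylase, had 4 regions and 1 of them in all 14 lists. It lay on exon 1, which holds the start codon (chromosome 17, 18183401 to 18184829), with summits within 14 bases and a GGACU 32 bases downstream of the summit. Its percentile was 53.7 and 80.6 in HepG2 WT, 87.1 and 86.3 in K562 WT, 94.4 and 84.7 in K562 Control, 91.9 and 86.1 in K562 RBFOX2 KD, 95.8, 92.0 and 95.2 in NB4 Control, and 97.6, 88.1 and 95.1 in NB4 RBFOX2 KD. HepG2 WT 1 was far below the rest. A 3′ UTR region (18209650 to 18209812) was listed in 3 of 3 NB4 Control libraries (32.2, 58.6 and 41.1) and in no other library.

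The comparison of RBFOX2 KD with Control asked whether loss of RBFOX2 went with a change in the m6A peaks of these genes. Of the 10 genes, 4 did not overlap between the K562 groups. FTO, IGF2BP1 and IGF2BP2 were higher in both KD libraries than in both Control libraries, and YTHDF3 was lower. The background was 26.8% of genes with a sense peak in at least 1 of these lists and 29.2% of those with one in every list. The largest of these differences was that of IGF2BP2, at 77.9 ± 0.0838 (SD, n = 2) in KD and 70.9 ± 7.04 (SD, n = 2) in Control. That KD mean joins different sites, the 3′ UTR in K562 RBFOX2 KD 1 and intron 7 in K562 RBFOX2 KD 2. The IGF2BP1 value of K562 RBFOX2 KD 2 likewise came from intron 5 and not from the 5′ UTR. The median difference over the 10 genes was 0.345 points, against -0.526 over the genes in every list, and with 2 libraries in each group no exact permutation p can go below 0.333. The count was higher when any of these libraries was left out. A group of 1 library overlaps less readily by construction, and no share of all genes was computed for such groups.

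In NB4, 2 of the 10 genes did not overlap, and both were higher in KD. YTHDC2 was at 90.0 ± 1.18 (SD, n = 3) in KD and 83.0 ± 5.76 (SD, n = 3) in Control, and YTHDF2 at 99.2 ± 0.291 (SD, n = 3) in KD and 98.0 ± 1.13 (SD, n = 3) in Control (two-sided exact permutation p = 0.1 for each, the smallest that 3 against 3 allows). Among genes with a peak in at least 1 of these lists 21.8% did not overlap, and among those with a peak in every list 24.6%. The 10 genes' median difference, 1.46 points, was close to the 1.55 points over the genes in every list. FTO was higher by 6.19 points, but NB4 Control 3, at 97.9, lay among the KD values (exact permutation p = 0.3).

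**Figure D4:**
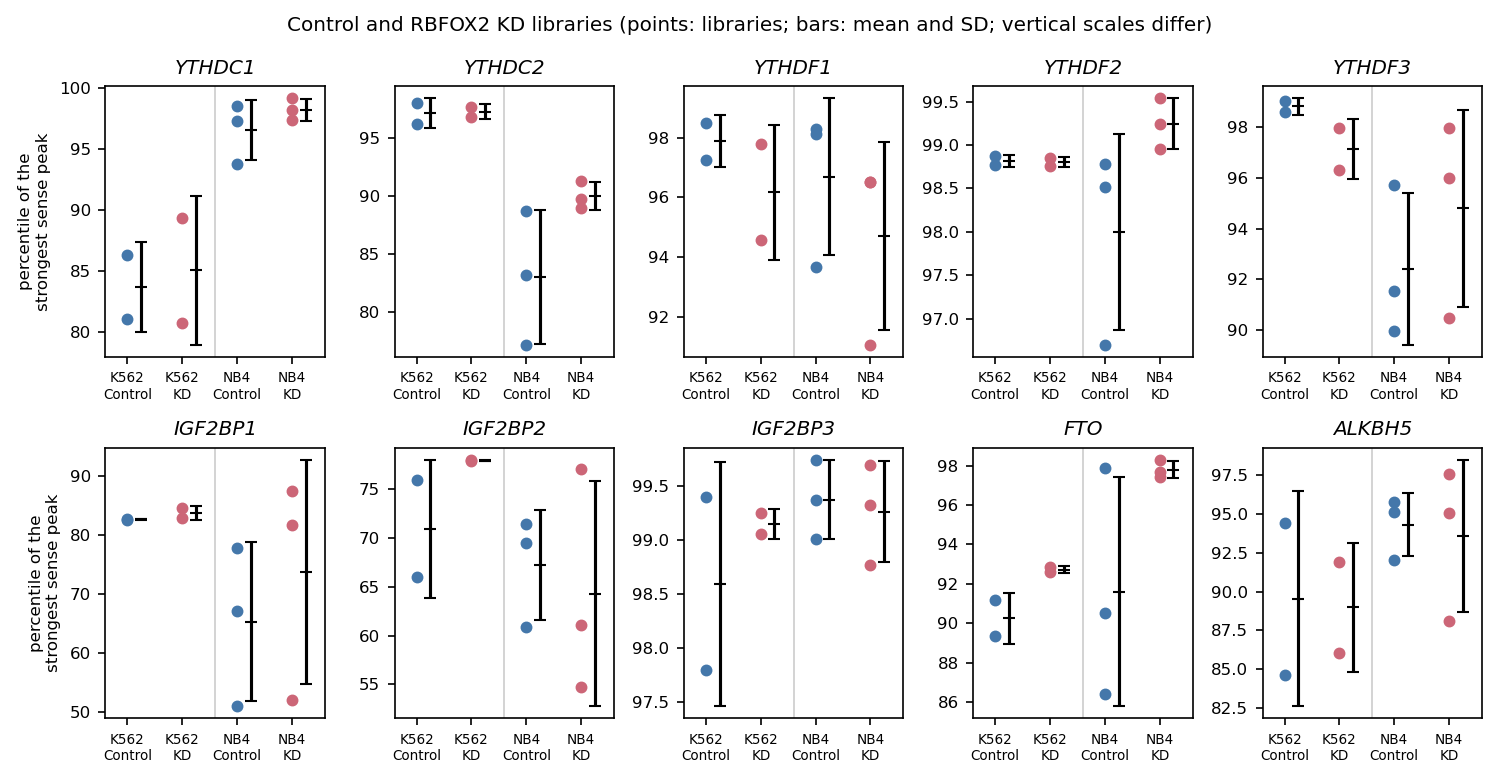
Percentile of the strongest sense peak (y axis) in Control and RBFOX2 KD libraries of K562 (n = 2 and 2) and NB4 (n = 3 and 3), 1 panel for each of the 10 genes; points are libraries, bars the mean ± SD. FTO is higher in KD in both lines by mean, with its strongest peak on exon 3 in K562 and in intron 8 in NB4. YTHDF2 and YTHDC2 are higher in every NB4 KD library than in every NB4 Control library.

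Over both lines, with labels permuted within each line, 0 of 10 genes had an unadjusted exact permutation p under 0.05, against 3.61% of the 16500 genes tested and 6.34% of those with a peak in every list. FTO came nearest, higher in KD by 4.33 points, with all 5 KD libraries above their line's Control mean (p = 0.05 by the stratified exact permutation test, 0.732 after Benjamini-Hochberg adjustment over all genes). That FTO value joins different sites, since the strongest peak was on exon 3 in K562 and in intron 8 in NB4. The exon 3 region, listed in all 14 libraries, was higher in KD by 1.57 points (stratified exact permutation p = 0.683). The smallest p that the 120 arrangements allow is 0.0167, and none of the 16500 genes passed the adjustment. YTHDC2 was higher by 3.56 points (exact permutation p = 0.1), YTHDF2 by 0.616 points (exact permutation p = 0.0833) and YTHDF1 differed by -1.85 points, with 5 of 5 KD libraries below their Control mean (exact permutation p = 0.217). By mean, 8 of 10 genes were higher in KD, against 54.1% of all genes tested and 57.1% of those with a peak in every list. By the number of peaks 5 of 10 were, and no share of all genes was computed for that measure. For YTHDC1, IGF2BP1, IGF2BP2, IGF2BP3, YTHDF3 and ALKBH5 the exact permutation p was 0.417 or above.

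Taken by region, 0 of 45 regions of these genes were listed in both K562 RBFOX2 KD libraries and neither Control library, or the reverse, where 3.45% of all regions were. In NB4, 3 of 63 regions were on 1 side only, against 4.14% of all regions. These were the YTHDC1 intron 9 region, listed in KD only, and the 3′ UTR regions of FTO (54115514 to 54115680; 42.8, 37.3 and 19.8 in Control) and ALKBH5, listed in Control only. Among the 16 regions in all 14 lists, 0 had an unadjusted stratified exact permutation p under 0.05, against 7.28% of all 7708. Some regions missing from at least 1 list, counted as 0 there, were under 0.05, all higher in KD. They included IGF2BP2 intron 12 at 185653987 to 185654148 (35.3 points) and 185655827 to 185656963 (18.3 points), stratified exact permutation p = 0.0167 each. The FTO intron 8 region at 54012000 to 54012369 was higher by 29.04 points (stratified exact permutation p = 0.0333). No share of all such regions was computed.

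Between cell lines, the share of genes with a peak in at least 1 list that did not overlap was larger than between KD and Control. It was 79.9% for K562 WT against HepG2 WT and 60.2% for NB4 Control against K562 Control. For KD against Control it was 26.8% in K562 and 21.8% in NB4. Within K562 it was 61.4% for Control against WT, so a share of that size was not particular to a difference of line. The groups also differ in size, and smaller groups overlap less readily by construction, so these shares are not directly comparable. Of these 10 genes, the counts were 5 and 4 between lines, and 4 and 2 for KD against Control. In K562 WT against HepG2 WT, 5 of 10 genes did not overlap, all higher in K562: YTHDC2, YTHDF2, IGF2BP1, IGF2BP2 and ALKBH5. The background was 79.9% of genes with a peak in at least 1 list and 78.5% of those with one in every list. IGF2BP1 differed most, at 85.4 ± 2.60 (SD, n = 2) in K562 WT and 57.6 ± 8.44 (SD, n = 2) in HepG2 WT. YTHDC2 was at 91.2 ± 2.88 and 67.5 ± 1.51 (SD, n = 2 each). The median difference of the 10 genes was 10.8 points and that over genes in every list 7.20 points, with the smallest exact permutation p again 0.333. The count was higher with any library left out, but no share of all genes was computed for that. By region, 5 of 49 were listed in both libraries of 1 line and neither of the other, against 48.0% of all regions. These were the YTHDC2 3′ UTR, YTHDF3 5′ UTR, IGF2BP2 intron 1 and IGF2BP3 intron 1 regions in K562 and the YTHDC1 exon 3 region in HepG2.

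In NB4 Control against K562 Control, 4 of 10 genes did not overlap, against 60.2% of genes with a peak in at least 1 list and 59.4% of those with one in every list. YTHDC1 was higher in NB4, at 96.6 ± 2.47 (SD, n = 3) against 83.7 ± 3.70 (SD, n = 2), while YTHDC2, YTHDF3 and IGF2BP1 were lower. IGF2BP1 differed most, by -17.3 points, and its exact permutation p was 0.2, since the spread within NB4 was large (SD 13.5). Leaving out a library gave the same or a higher count, again without a share of all genes. By region, 6 of 65 were on 1 side only (30.7% of all regions): the IGF2BP2 gene start region (185824789 to 185825397 on chromosome 3, with 2 of the 3 NB4 Control summits in exon 1 and 1 upstream of it), the FTO intron 8 and 3′ UTR regions and the ALKBH5 3′ UTR region in NB4, and, in K562, a region in intron 1 of IGF2BP1 and a weak one in its intron 5 (49036263 to 49036610, listed in 4 of 14 libraries), which is not the intron 5 region listed everywhere.

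K562 Control and K562 WT libraries differ in transduction with a hairpin and cannot be told apart from any batch the labels do not give. Here 6 of 10 genes did not overlap (background 61.4% and 62.8%, for genes in at least 1 and in every list). YTHDC2, YTHDF2, YTHDF3 and FTO were higher in Control, and YTHDC1 and IGF2BP1 were higher in WT. YTHDC2 moved most, from 91.2 ± 2.88 in WT to 97.2 ± 1.30 in Control (SD, n = 2 each). Here too the count was higher with any library left out, without a share of all genes. By region, 4 of 52 were on 1 side only (20.3% of all regions), all in WT, and the same 4 were absent from all 4 hairpin libraries, RBFOX2 KD included (15.4% of all regions were on 1 side only in that comparison). They were the intron 1 and gene start regions of IGF2BP2, the FTO intron 8 region described above and another FTO intron 8 region 340817 bases from the transcript start (67.1 and 69.1 in HepG2 WT, 29.05 and 41.5 in K562 WT). The K562 Control libraries enter 3 of these comparisons, so their counts are not independent.

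Genes of the methyltransferase complex and of other methyltransferases were compared as a list. It held METTL3, METTL14, WTAP, VIRMA, ZC3H13, CBLL1, RBM15, RBM15B, METTL16, METTL5, ZCCHC4 and PCIF1, not all of which encode enzymes. Of these 12 genes, 10 had a sense peak in all 14 lists, METTL5 had none in any and ZCCHC4 had a peak in 1. METTL3, the catalytic subunit, had percentiles of 26.8 to 90.9, and METTL14, its partner, of 66.4 to 93.2. ZC3H13, which anchors the complex in the nucleus, lay at 95.1 or above in every list. Groups did not overlap in 2 of 10 tested genes of this list for K562 KD against Control, both lower in KD. For NB4 it was 1 of 11, higher in KD. The background over all genes was 26.8% and 21.8%. Of 9 other proteins described as readers, 2 (PRRC2A and EIF3A) were listed in all 14, and 1 of 6 and 1 of 7 tested genes did not overlap in the K562 and NB4 comparisons, against the same background. Over both lines 0 genes of either list had an unadjusted stratified exact permutation p under 0.05.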

How the data were processed

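Chromatin-associated RNA MeRIP-seq peak lists of 14 IP libraries were analysed. The members and gene lists were chosen with earlier results of these data known. According to the methods and the submitters' processing notes, reads were trimmed with Trimmomatic 0.39, aligned to hg38 with HISAT2 2.1.0, split by strand with SAMtools 1.9, and peaks were called per library and strand with MACS2 (no model, extension of 150 bases, up to 5 duplicates kept, genome size 1.3e+08, q below 0.01). The background library given to the peak caller and the treatment of reads aligned to several places are not given in the sources used here. The deposited lists hold, per peak, a fold over local background at the summit (a ratio), −log10 p-values and −log10 q-values as written by the authors' peak caller, and an integer score that the authors' peak caller derives from the q-value. The authors annotated with GENCODE release 29, and release 44 was used here. No column of the lists was left out as belonging to another sample (0 columns).

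On chromosomes 1 to 22, X and Y, each peak was given its percentile by −log10 q within its own list, with mean ranks for ties. A gene's level was that of its strongest sense peak, with 0 where none was listed. Places were read from the canonical transcript. Overlapping sense peaks of all lists were merged by strand into regions. Some sequences are not reported here. Named regions were, for each gene, the one with the highest mean percentile, those in all 14 lists, and those in all libraries of 1 line and none of another; other regions are named where they were listed on 1 side only of a comparison, or were chosen after their values were seen. Of the other protein-coding genes, the one with the nearest percentiles was named for the 3 members with the widest range of group means.

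For each comparison, a gene was counted where every library of 1 group lay above every library of the other. Differences of means were tested with two-sided exact permutation tests, over both lines with labels permuted within each line, with Benjamini-Hochberg adjustment over all genes tested. Computations used Python 3.11.15, numpy 2.4.6, pandas 2.3.3, scipy 1.17.1 and matplotlib 3.10.9, and the scripts were tested on simulated data. Depth was recovered from the commonest local background. Alternatives were a stricter threshold (−log10 q of at least 5), the percentile of the fold, the gene body alone, at least 50% of a peak in the window, the number of peaks, lists scaled to a common depth, leaving out each library, a replicate block, and, chosen after seeing the data, the summit pileup divided by depth.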

Additional observations from a re-analysis of the deposited data

Results flagged for a closer look

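YTHDF2 was the only one of the 10 genes whose KD minus Control change differed between the lines at an unadjusted exact permutation p under 0.05. The share of all genes under that threshold was not counted, so this cannot be set against a background. The YTHDF2 percentile changed by -0.02 points in K562 and by 1.25 points in NB4, a difference of -1.26 points (exact permutation p = 0.0333, and 0.678 after Benjamini-Hochberg adjustment over all genes tested). The K562 libraries of both groups lay at 98.8 to 98.9, while in NB4 3 of 3 KD libraries lay above all 3 Control libraries. The exact permutation p was 0.2 with the percentile of the fold, 0.3 with the number of peaks and 0.317 with the summit pileup divided by depth, and it ran from 0.0333 to 0.217 when each library was left out in turn.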

How the results depend on the processing

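A stricter threshold, the gene body alone, a share of the peak in place of the summit and lists scaled to a common depth moved none of the counts of genes by more than 1.5 times. With the percentile of the fold in place of that of q, 2 genes did not overlap in K562 KD against Control, 8 in K562 against HepG2 WT and 3 in K562 Control against WT, and 1 gene passed over both lines (FTO, 9.05 points, exact permutation p = 0.0167). The direction turned for YTHDC1 (-4.38 points), YTHDF3 (-1.10) and ALKBH5 (1.23). With the number of peaks, the counts were 1 for K562 KD, NB4 KD, K562 against HepG2 and K562 Control against WT, and 2 for NB4 against K562 Control. By that measure 5 genes were higher in KD, and the difference turned for YTHDF1 (0.167 peaks), YTHDF3 (-0.167), IGF2BP1 (-0.0833) and IGF2BP3 (-0.25). With the summit pileup divided by depth, chosen after seeing the data, 5 genes did not overlap in NB4 KD against Control and 9 in K562 against HepG2, and YTHDC1 (-3.71) and IGF2BP1 (-1.19) turned.

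Leaving out each library in turn gave 5 to 9 genes for K562 KD, 2 to 3 for NB4 KD, 6 to 8 for K562 against HepG2, 4 to 8 for NB4 against K562 Control, 7 to 10 for K562 Control against WT, 0 to 1 over both lines and 6 to 9 higher in KD. The 1 gene over both lines was YTHDC2 without K562 Control 2 (exact permutation p = 0.0333) and FTO without NB4 Control 3 (5.90 points, exact permutation p = 0.0167). The KD difference over both lines changed sign for YTHDC1 (-0.64 to 3.67 points), YTHDF3 (-0.43 to 1.44), IGF2BP2 (-1.18 to 4.50), IGF2BP3 (-0.18 to 0.62) and ALKBH5 (-3.09 to 1.81). With fewer libraries groups overlap less readily by construction, and the other causes were not tested. No share of all genes was computed with a library left out.

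Replicate numbers did not pair the libraries. Same-numbered KD and Control libraries had correlations of deviations of -0.0256 in K562 and of -0.0483, -0.0405 and -0.178 in NB4. With the replicate number as a block, 0 genes passed and FTO, at 4.33 points, had an exact permutation p of 0.125, where the smallest that the block allows is 0.0625.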

Other observations

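Peaks on the strand opposite to a gene were kept apart from all values above. They were listed in the window of IGF2BP1 in 11 libraries, IGF2BP3 in 9, YTHDF2 in 5 (all K562), IGF2BP2 in 2 and YTHDF3 in 1, and in no library for YTHDC1, YTHDC2, YTHDF1, FTO and ALKBH5.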
